A study of Homo sapiens with 3 samples.

Results

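The NRF2 antioxidant genes examined here were NFE2L2, which encodes the transcription factor NRF2, its repressor KEAP1, and 7 antioxidant target genes, NQO1, HMOX1, GCLC, GCLM, TXNRD1, SRXN1 and FTL. They were chosen by symbol, as the rows of the gene table whose Ensembl identifier carries one of these names, and make up 9 of its 58333 genes. All 9 were found, and all 9 passed the filter on low values. The question put to the data was how the mRNA of each gene differed when ADAR1, the RNA-editing enzyme encoded by ADAR, was silenced.

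Every library came from Cal62, a human thyroid cancer cell line, grown in DMEM with 10% FBS and transfected with Lipofectamine RNAimax. One group received the negative control siRNA (siControl), and the others received siADAR1 #1 or siADAR1 #2, both directed against ADAR. Poly(A)+ RNA was sequenced from 2 biological replicates per group, giving 6 libraries. The time from transfection to RNA isolation is not stated for them, siRNA silencing is transient, and no second line is in the table.

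The libraries held 30114840 to 50029763 gene reads each, and 3 reads corresponded to between 2.81 and 4.39 normalized counts. ADAR had 10906 and 11701 normalized counts in siControl, 1328 and 2246 with siADAR1 #1, and 1663 and 2928 with siADAR1 #2. It was downregulated to 15.8% and 20.3% of siControl (limma, adjusted p-values 0.00295 and 0.00128). Of 7 thyroid follicular markers, PAX8 was abundant, NKX2-1 had 0 reads in every library and SLC5A5 at most 15 reads, so the labelled tissue was visible in part of its defining genes. The summed thyroid markers ranged from 14298 to 16115 normalized counts in siControl, from 10509 to 15226 with siADAR1 #1 and from 2819 to 5705 with siADAR1 #2. PAX8, which made up most of this sum, fell by 1.99 on the log2 scale with siADAR1 #2 (limma, adjusted p = 0.0035). The 5 tested thyroid markers did not move alike with siADAR1 #2, with log2FC from −1.99 to 2.86, 2 above 0 and 3 below. Of them 2 were called, both as falls. Between the siRNAs, 1 thyroid marker was called higher and 1 lower with siADAR1 #2. The summed mesenchymal markers (VIM, FN1, CDH2 and COL1A2) ranged from 270221 to 282040 in siControl, from 78931 to 131241 with siADAR1 #1 and from 85835 to 153034 with siADAR1 #2. The sum of 5 epithelial markers ranged from 74103 to 92785 in siControl, from 102317 to 106204 with siADAR1 #1 and from 67785 to 77725 with siADAR1 #2, where KRT19 rose (1.18) and KRT18 fell (−0.85). Of 4 leukocyte markers, CD3E had 0 reads in every library and PTPRC at most 5 reads, but their sum ranged from 248 to 420.2 in siControl, from 430.2 to 617 with siADAR1 #1 and from 796 to 1566 with siADAR1 #2. Nearly all of it was CD68, which rose with siADAR1 #2 (log2FC 1.80 ± 0.37, limma, adjusted p = 0.0088) and was also higher there than with siADAR1 #1 (1.13, adjusted p = 0.0450). Whether these marker shifts had a part in the results that follow was not tested.

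NRF2 is made continuously in most cells and is bound by KEAP1, an adaptor that presents it to a CUL3 ubiquitin ligase for degradation. Oxidants and electrophiles modify cysteines of KEAP1, and NRF2 then accumulates in the nucleus and, paired with a small MAF protein, activates genes that carry an antioxidant response element. Its targets make glutathione, reduce thioredoxin and quinones, degrade heme and store iron. NRF2 activity is set largely at the protein level, which RNA-seq does not measure.

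The core of the antioxidant response element, TGACNNNGC, was searched on both strands of RefSeq promoter windows (GRCh38.p14, 250 bases before to 50 after each transcript start). Windows were matched for 8 of the 9 genes, 11 windows in all, and HMOX1 was not matched. The core was in 4 of these 11 windows, belonging to KEAP1, GCLM and TXNRD1, and in 4687 of all 35116 windows (13.3%). The 6 matches are shown because the genes that hold them took different courses below. Each is written 5′ to 3′ on the strand of the match with 8 flanking bases, and the capitals mark the core.
GCLM, chr1:93909448-93909472, plus strand: gaagacaaTGACTAAGCagaaatcg
TXNRD1 first window, chr12:104215672-104215696, plus strand: acgggctaTGACTTCGCtgttgtca
TXNRD1 first window, chr12:104215763-104215787, minus strand: gtgggaacTGACGGAGCcgaaggac
TXNRD1 second window, chr12:104286922-104286946, minus strand: agtcagaaTGACAAAGCagaaatcc
KEAP1, chr19:10502809-10502833, minus strand: ttttattgTGACACGGCgggcgccc
KEAP1, chr19:10502786-10502810, plus strand: ggtcaccaTGACTAAGCagagccgg
The match of GCLM lay 25 bases before its RefSeq start, and the same 9 letters, TGACTAAGC, stood 22 bases before a RefSeq start of KEAP1. The first match of TXNRD1 lay outside the annotated gene, 90 bases before the start, and the other 5 overlapped exons of GENCODE 44, whose transcripts can start further upstream than those of RefSeq. The match of GCLM and the minus-strand match in the first window of TXNRD1 met an exon only at the first base of the annotated gene. A match describes letters in a window and is not evidence that a protein binds there.

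With siADAR1 #2 the 7 target genes did not move one way. HMOX1 rose to 4.11-fold of siControl, while NQO1, GCLM and SRXN1 were downregulated to 30.6%, 43.2% and 43.9%. With siADAR1 #1 the same 3 genes passed no test, and HMOX1 went the other way, to 64.3% of siControl. NFE2L2 and KEAP1 themselves passed the thresholds with neither siRNA. A gene was called changed when its limma adjusted p-value was under 0.05 and its log2 fold change (log2FC) was beyond 0.5, the thresholds the study set. The values below are normalized counts, read back from the deposited log2 values, and are comparable between libraries for 1 gene. In bulk libraries such as these, fewer cells that express a gene and less of its RNA per cell cannot be told apart.

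**Figure D1:**
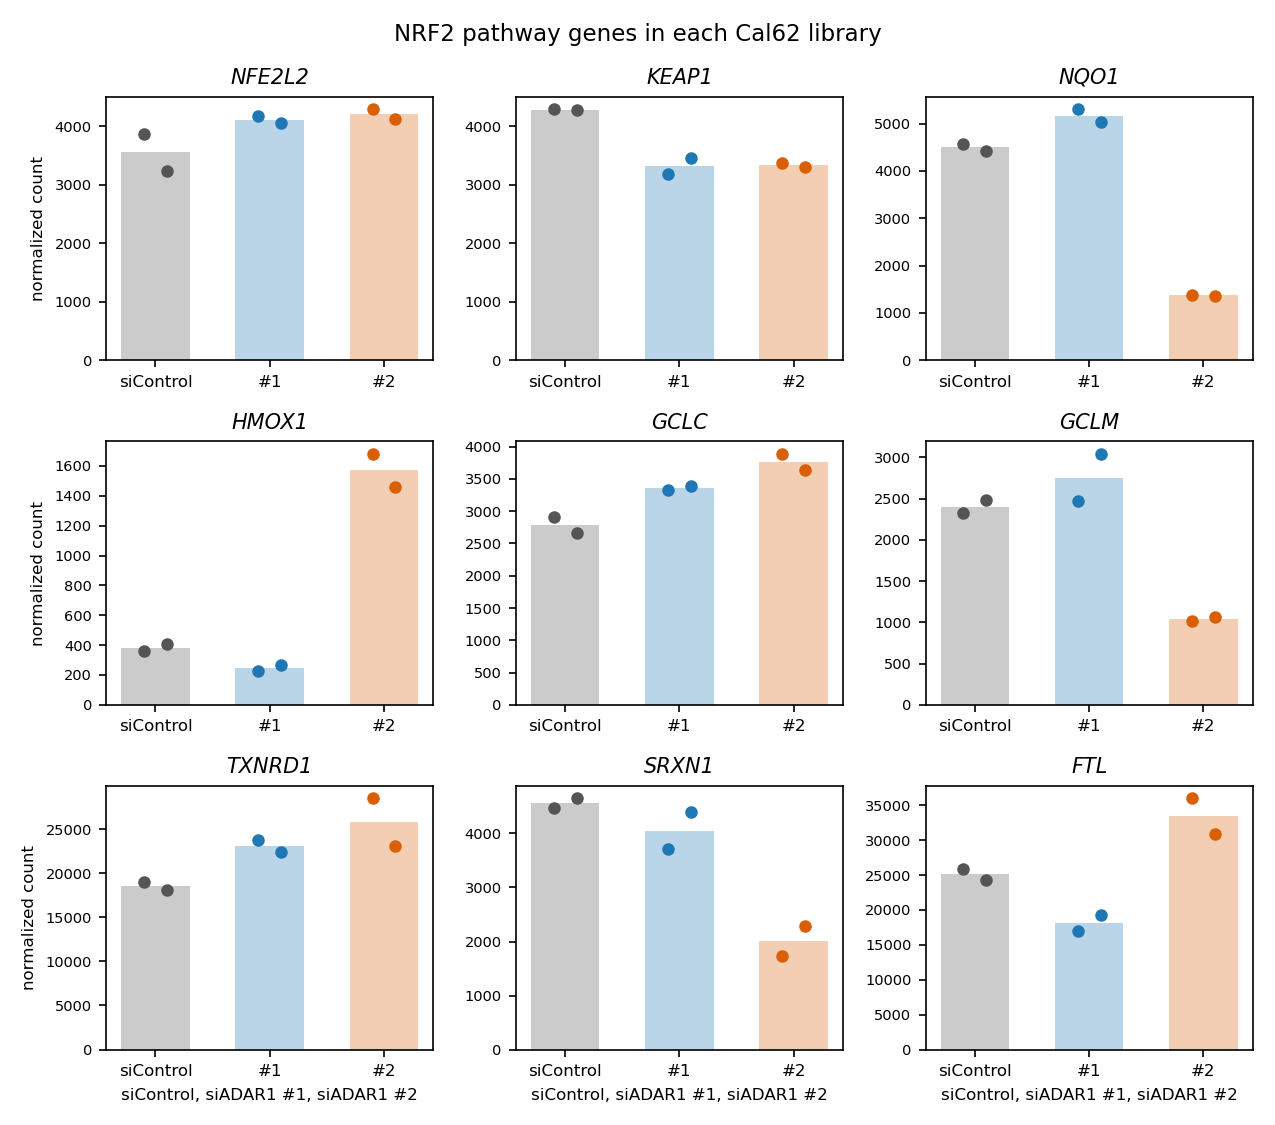
Normalized count (y axis, linear from 0) of each gene in the 6 Cal62 libraries, by group; points are libraries and bars are means of 2. NQO1, GCLM and SRXN1 were lowest and HMOX1 highest in both siADAR1 #2 libraries, while KEAP1 was lower in all 4 siADAR1 libraries than in siControl.

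NFE2L2, on chromosome 2 from 177218667 to 177392756 (GRCh38, GENCODE 44, minus strand, protein coding, ENSG00000116044), had 3871 and 3241 normalized counts in siControl. It had 4174 and 4046 with siADAR1 #1, and 4292 and 4123 with siADAR1 #2. All 4 siADAR1 libraries were above both siControl libraries, although the siControl replicates differed from each other by more than the highest of them differed from the lowest siADAR1 library. The log2FC was 0.21 ± 0.12 (SE, n = 2 per group, 95% interval −0.07 to 0.50) with siADAR1 #1 and 0.25 ± 0.12 (−0.04 to 0.53) with siADAR1 #2, and neither passed the test (limma, adjusted p-values 0.278 and 0.176). Exons of HNRNPA3 on the opposite strand cover 23.4% of the annotated exon bases of NFE2L2. HNRNPA3 had between 8400 and 32303 reads, and the strand setting of the counting is not given in the sources used here, so reads in the shared stretch may be split between these genes.

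KEAP1, the repressor, lies on chromosome 19 from 10486125 to 10503558 on the minus strand (protein coding, ENSG00000079999). It had 4295 and 4272 normalized counts in siControl, 3177 and 3462 with siADAR1 #1, and 3368 and 3300.1 with siADAR1 #2. Both siRNAs thus left it at nearly the same level, 77.5% and 77.8% of siControl, with no overlap with the siControl libraries. The log2FC was −0.37 ± 0.11 with siADAR1 #1 (limma, adjusted p = 0.0537) and −0.36 ± 0.11 with siADAR1 #2 (adjusted p = 0.0412), so the difference with siADAR1 #2 passed the p-value threshold and neither was beyond 0.5. Between the siRNAs, KEAP1 differed by 0.01 on the log2 scale, with a 95% interval from −0.25 to 0.26.

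GCLC and GCLM encode the catalytic and the modifier subunit of glutamate-cysteine ligase, the enzyme of the first step of glutathione synthesis. GCLC (chromosome 6, 53497341 to 53616970, minus strand, ENSG00000001084) had 2915 and 2663 normalized counts in siControl, 3335 and 3389 with siADAR1 #1, and 3889 and 3634 with siADAR1 #2. It was higher in all 4 siADAR1 libraries than in siControl. The log2FC was 0.27 ± 0.11 with siADAR1 #1 (limma, adjusted p = 0.144) and 0.43 ± 0.11 with siADAR1 #2 (adjusted p = 0.0244), in both cases short of 0.5.

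GCLM (chromosome 1, 93885199 to 93909456, minus strand, ENSG00000023909) had 2324 and 2481 normalized counts in siControl, 2468 and 3044 with siADAR1 #1, and 1017 and 1059 with siADAR1 #2. The siADAR1 #1 libraries overlapped siControl, whereas both siADAR1 #2 libraries were below every other library. GCLM was downregulated with siADAR1 #2, with a log2FC of −1.21 ± 0.14 (limma, adjusted p = 0.0009). The log2FC with siADAR1 #1 was 0.19 ± 0.14 (adjusted p = 0.395), and the difference between the siRNAs was itself past the thresholds, at −1.40 ± 0.14 (adjusted p = 0.000403). The subunits therefore separated with siADAR1 #2, with GCLC at 135% of siControl and GCLM at 43.2%.

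TXNRD1 encodes cytosolic thioredoxin reductase, and SRXN1 encodes sulfiredoxin, which restores overoxidized peroxiredoxins. TXNRD1 (chromosome 12, 104215779 to 104350307, plus strand, ENSG00000198431) had 18972 and 18129 normalized counts in siControl, 23791 and 22409.6 with siADAR1 #1, and 28469 and 23091 with siADAR1 #2. It was higher in each siADAR1 library than in siControl, and the siADAR1 #2 replicates were further apart than those of the other groups. The log2FC was 0.32 ± 0.12 with siADAR1 #1 (limma, adjusted p = 0.123) and 0.47 ± 0.12 with siADAR1 #2 (adjusted p = 0.0255), short of 0.5 in both.

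SRXN1 (chromosome 20, 646615 to 653200, minus strand, ENSG00000271303) had 4480.0 and 4647 normalized counts in siControl, 3708 and 4391 with siADAR1 #1, and 1725 and 2287 with siADAR1 #2. Both siADAR1 #2 libraries lay below the other 4. SRXN1 was downregulated with siADAR1 #2, with a log2FC of −1.20 ± 0.16 (limma, adjusted p = 0.00152). With siADAR1 #1 the log2FC was −0.18 ± 0.16 (adjusted p = 0.495), and siADAR1 #2 was lower than siADAR1 #1 by −1.02 ± 0.16 (adjusted p = 0.00216). A same-strand transcript without a symbol shares 90.7% of its exon bases and had between 0 and 51 reads in a library. How reads in the shared stretch were assigned was not tested.

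NQO1 encodes a quinone reductase and is a widely used readout of NRF2 activity. NQO1 (chromosome 16, 69706996 to 69726668, minus strand, ENSG00000181019) had 4576 and 4415 normalized counts in siControl, 5308 and 5027 with siADAR1 #1, and 1386 and 1362 with siADAR1 #2. The siADAR1 #2 replicates nearly coincided and were far below the other 4 libraries, while both siADAR1 #1 libraries were above siControl. NQO1 was downregulated with siADAR1 #2, with a log2FC of −1.71 ± 0.11 (limma, adjusted p = 0.000258). The log2FC with siADAR1 #1 was 0.20 ± 0.11 (adjusted p = 0.251, 95% interval −0.05 to 0.45). The siRNAs differed by −1.91 ± 0.11 (adjusted p = 0.000109), and NQO1 was 3.76-fold higher with siADAR1 #1 than with siADAR1 #2.

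HMOX1 encodes heme oxygenase 1, which breaks heme down to biliverdin, carbon monoxide and iron, and which is repressed by BACH1 as well as activated by NRF2. HMOX1 (chromosome 22, 35380361 to 35394214, plus strand, ENSG00000100292) had 360.5 and 405 normalized counts in siControl, 228 and 264 with siADAR1 #1, and 1682 and 1460.4 with siADAR1 #2. The 3 groups did not overlap, with siADAR1 #1 lowest and siADAR1 #2 highest. HMOX1 was upregulated with siADAR1 #2, with a log2FC of 2.03 ± 0.17 (limma, adjusted p = 0.000362). With siADAR1 #1 it fell by 0.63 on the log2 scale, with an SE of 0.17 (adjusted p = 0.0396). This call was lost under 11 of 16 alternative settings, where the adjusted p-value reached 0.173, including without siControl replicate 1 (0.114), without siControl replicate 2 (0.173), without siADAR1 #1 replicate 1 (0.162) and without either siADAR1 #2 library (0.0622 and 0.0605). Between the siRNAs HMOX1 was 6.39-fold higher with siADAR1 #2, a log2 difference of 2.66 ± 0.17 (adjusted p = 0.000143).

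FTL encodes the light chain of ferritin, the iron store of the cell. FTL (chromosome 19, 48965309 to 48966879, plus strand, ENSG00000087086) had 25931 and 24316 normalized counts in siControl, 16944 and 19307 with siADAR1 #1, and 35965 and 30866 with siADAR1 #2. As for HMOX1, the groups did not overlap and siADAR1 #1 was lowest. The log2FC was −0.47 ± 0.12 with siADAR1 #1 (limma, adjusted p = 0.0334) and 0.41 ± 0.12 with siADAR1 #2 (adjusted p = 0.0391), each short of 0.5. The siRNAs differed from each other by 0.88 ± 0.12 (adjusted p = 0.00129), past both thresholds. In the same table, 16 FTL pseudogenes held 82 reads over all libraries, so few reads of this family were counted on them.

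**Figure D2:**
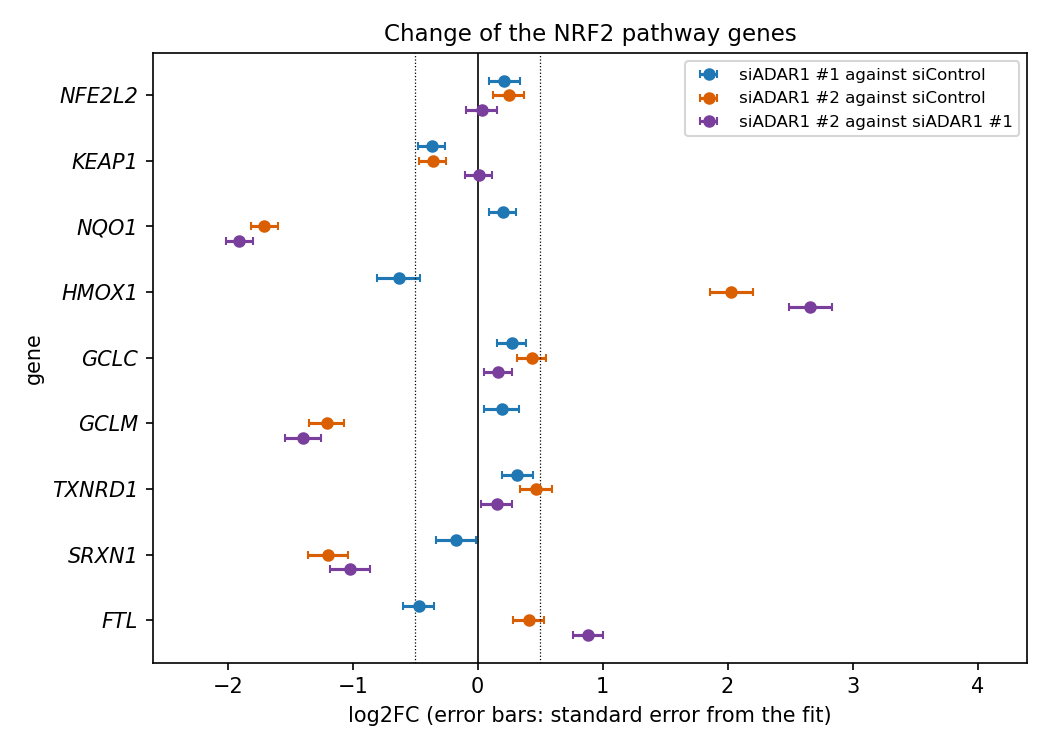
log2FC (x axis) of each gene in the 3 comparisons between groups, with the SE of the fit as error bars; dotted lines mark the threshold of 0.5. With siADAR1 #2, NQO1, GCLM and SRXN1 lay below −1 and HMOX1 above 2, while NFE2L2, KEAP1, GCLC and TXNRD1 differed little between the siRNAs.

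Counted together, 1 of the 9 genes was called with siADAR1 #1 (HMOX1, downregulated), against 16.8% of the 20858 genes tested, of which 6.18% rose and 10.6% fell. With siADAR1 #2, 4 of 9 were called, 1 upregulated and 3 downregulated, against 26.6% of all genes, of which 11.1% rose and 15.5% fell. Between the siRNAs, 5 of 9 were called, 2 higher and 3 lower with siADAR1 #2, against 32.8%, of which 16.7% were higher and 16.1% lower. By the adjusted p-value alone, 2 of 9 passed with siADAR1 #1 and 8 of 9 with siADAR1 #2, against 18.3% and 29.4% of all genes, and NFE2L2 was the gene that did not pass with siADAR1 #2. The 8 became 4 without siControl replicate 1, siControl replicate 2 or siADAR1 #2 replicate 1, and 5 without siADAR1 #2 replicate 2. They became 6 without a filter, 5 with median-centring and 4 with eBayes without a trend. With quantile normalization 8 passed, but NFE2L2 was among them (limma, adjusted p = 0.0198) and KEAP1 was not (adjusted p = 0.123). The 2 became 0 without either siControl library or siADAR1 #1 replicate 1, and 1 without either siADAR1 #2 library. Between the siRNAs the same 5 genes passed by the adjusted p-value alone, against 36.4%. The libraries of siADAR1 #2 and siControl did not overlap for 9 of 9 genes, against 67.2% of all genes, and those of siADAR1 #1 and siControl for 8 of 9, against 61.2%. Those of the siRNAs did not overlap for 6 of 9, against 69.3%. The median log2FC over the 9 genes was 0.19 with siADAR1 #1 and 0.25 with siADAR1 #2, beside −0.02 and −0.01 over all genes tested, so the calls with siADAR1 #2 were mostly falls while the median was above 0.

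The comparisons with each siRNA share the siControl libraries, so the test between the siRNAs, which does not set either against siControl, is the direct measure of how far they differed. NFE2L2, KEAP1, GCLC and TXNRD1 did not pass this test (limma, adjusted p-values 0.858, 0.967, 0.314 and 0.390), and the 95% intervals of their log2 differences reached at most 0.44 and at least −0.25. NQO1, HMOX1, GCLM, SRXN1 and FTL passed it.

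When the 4 siADAR1 libraries were taken as 1 group against siControl, 0 of the 9 genes were called (limma, adjusted p-values 0.301 to 0.974), against 0.0% of all genes. When the average of the siRNA changes was instead tested in the fit with 3 groups, 3585 of the 20858 genes tested and 4 of the 9 (GCLM, HMOX1, NQO1 and SRXN1) were called. With voom on the recovered reads the count was 0. In the fit with 1 group, 2916 genes (14.0%) had an unadjusted p-value under 0.05, among which were KEAP1 (0.0342) and TXNRD1 (0.0305). The log2FC of KEAP1 in this comparison was −0.37 ± 0.14 and that of TXNRD1 was 0.39 ± 0.14. For NQO1 the value was −0.75 ± 0.65 and for HMOX1 0.70 ± 0.91, with errors that hold the spread between the siRNAs.

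Levels of different genes can be compared per kilobase of the canonical transcript. In siControl, FTL had 28844 ± 1311 normalized counts per kilobase (SD, n = 2) and TXNRD1 4806 ± 154, which placed them at the 99.5th and 96.9th percentile of the genes tested. SRXN1 (1805 ± 47), NQO1 (1783 ± 45) and KEAP1 (1670 ± 6.4) came next, of which SRXN1 and NQO1 did not differ beyond their spread. NFE2L2 followed at 1454 ± 182, then GCLC at 737 ± 47, GCLM at 492 ± 23 and HMOX1 at 246 ± 20, the lowest of the 9 at the 58.8th percentile. With siADAR1 #2 the order of the low members turned, since HMOX1 reached 1011 ± 101 per kilobase and stood beside GCLC (994 ± 48), above NQO1 (545 ± 6.6) and GCLM (213 ± 6.1). Per length of all annotated exons together, NFE2L2 ranked 8th and GCLM 6th in siControl, and the other 7 genes kept their rank.

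**Figure D3:**
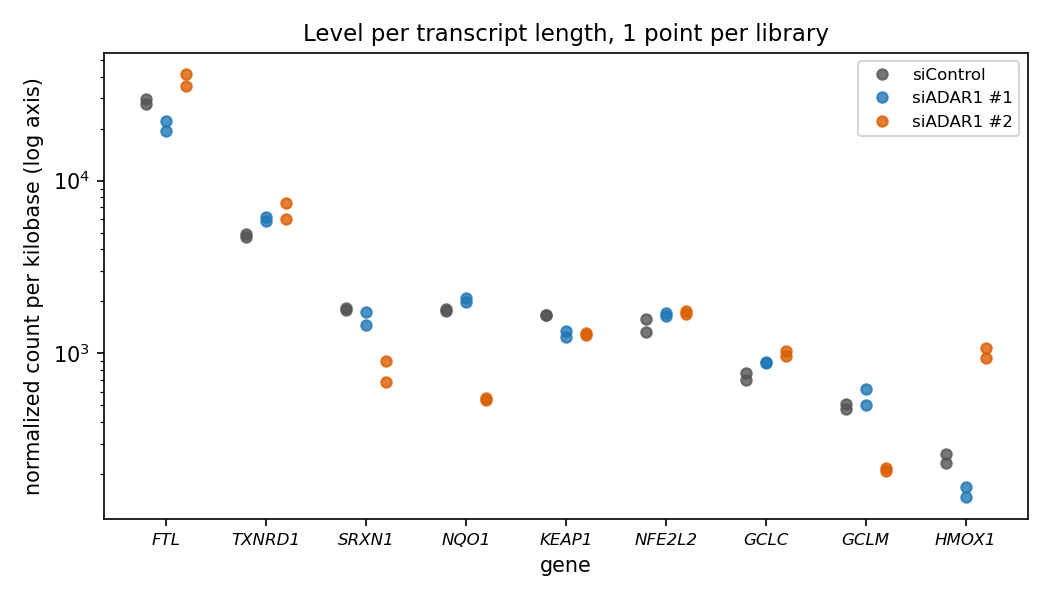
Normalized count per kilobase of canonical transcript (y axis, log scale) of each gene, ordered by its siControl mean, with 1 point per library. HMOX1, lowest in siControl, reached the level of GCLC with siADAR1 #2, and GCLM then became the lowest.

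The wider pathway was described with 8 lists of related genes, 144 genes in all, of which 133 were tested. Over these lists 37 genes (27.8%) were called with siADAR1 #1 and 48 (36.1%) with siADAR1 #2, beside 16.8% and 26.6% of all genes, and their median log2FC was −0.05 and −0.09. The shares depend on the filter on low values. With it at 50 instead of 10, 37 and 48 of 119 list genes were called, beside 3444 and 5120 of 14177 genes. Of the 25 genes named below that were called with siADAR1 #1, 5 kept the call without siControl replicate 1 (MAFF, SLC7A11, SESN2, NADK and CAT), 16 without siControl replicate 2 and 14 without siADAR1 #1 replicate 1. Over all 8 lists 5, 19 and 16 of the 37 calls were kept. With siADAR1 #2, 21 to 25 of the 25 named calls were kept under the 16 alternatives, and the 48 calls of the lists became 30 without siADAR1 #2 replicate 1.

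**Figure D4:**
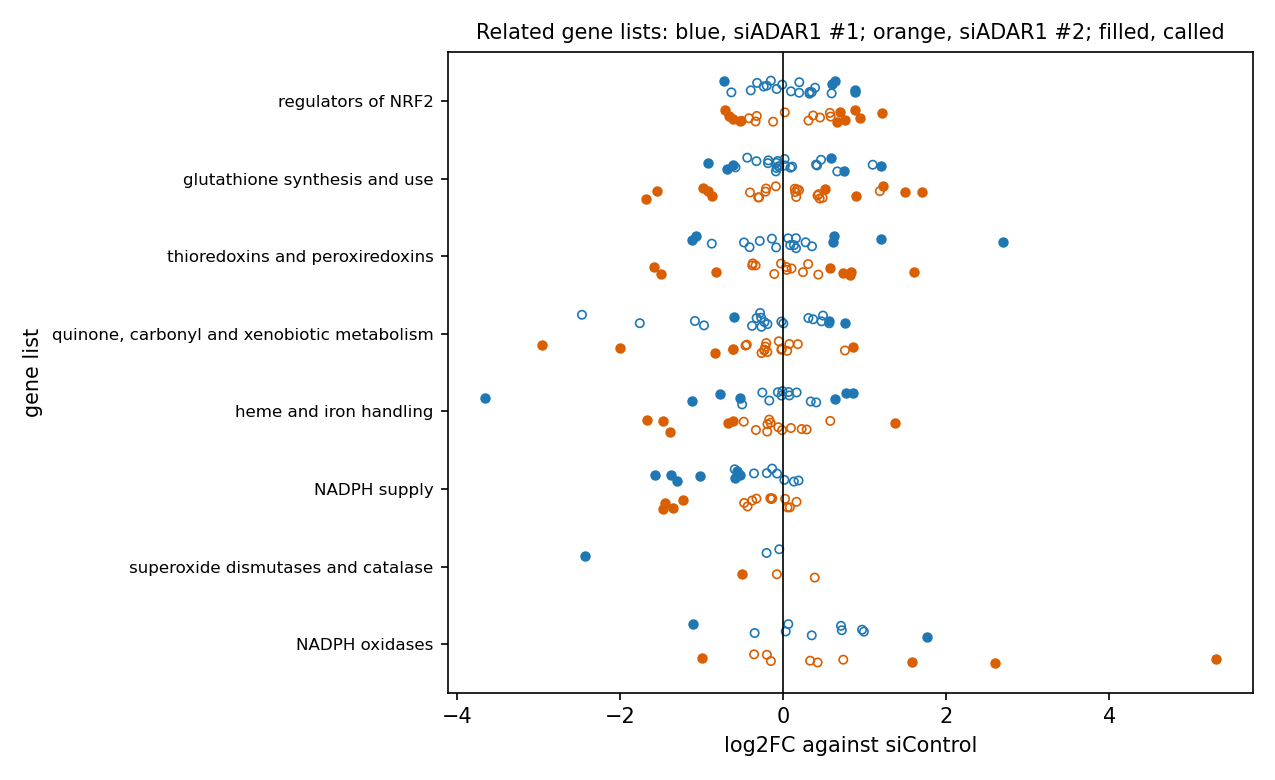
log2FC against siControl (x axis) of the tested genes of each of the 8 lists, with siADAR1 #1 in blue and siADAR1 #2 in orange; filled points were called. Genes of most lists, NADPH supply among them, lay on both sides of 0. The called genes for NADPH supply, and those for superoxide dismutases and catalase, were below 0 with both siRNAs.

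Among 21 tested regulators of NRF2, 4 rose and 1 fell with siADAR1 #1, and 6 rose and 4 fell with siADAR1 #2, with median log2FC of 0.20 and 0.31. Called were 23.8% and 47.6% of them, beside 16.8% and 26.6% of all genes. BACH1, the repressor that competes with NRF2 at the antioxidant response element, had 3428 and 2593 normalized counts in siControl, 6234 and 4822 with siADAR1 #1, and 7508 and 6326 with siADAR1 #2. It was upregulated with both siRNAs, with log2FC of 0.88 ± 0.18 and 1.21 ± 0.18 (limma, adjusted p-values 0.0164 and 0.0024). SQSTM1, the autophagy receptor p62, which binds KEAP1 and removes it, rose by 0.64 ± 0.11 and 0.76 ± 0.11 (adjusted p-values 0.0082 and 0.0019). NFE2L3, a relative of NRF2, also rose with both (log2FC 0.60 and 0.94), and GSK3B, a kinase that marks NRF2 for degradation, fell with both (−0.72 and −0.67). The NFE2L3 call with siADAR1 #1 was lost under 9 of 16 alternatives (log2FC down to 0.40 without siControl replicate 2, adjusted p up to 0.171), that of BACH1 under 4 and those of SQSTM1 and GSK3B under 2 each. Of the small MAF partners, MAFF was called with siADAR1 #1 (0.88) and MAFG with siADAR1 #2 (0.70). Both were also above 0 with the other siRNA, uncalled, MAFF at 0.31 with siADAR1 #2 and MAFG at 0.35 with siADAR1 #1. CUL3, the ligase scaffold that KEAP1 joins, had log2FC of −0.24 and −0.32 and was called with neither.

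In the list of glutathione synthesis and use, 3 genes rose and 3 fell with siADAR1 #1 and 5 rose and 5 fell with siADAR1 #2, of 26 tested, and the median log2FC was −0.05 and 0.16. These calls were 23.1% and 38.5% of the list, beside 16.8% and 26.6% of all genes. SLC7A11, the cystine importer that supplies cysteine for glutathione, had 1266 and 1276 normalized counts in siControl, 2986 and 2867 with siADAR1 #1, and 4719 and 3615 with siADAR1 #2. It was upregulated with both siRNAs, to 2.30-fold and 3.28-fold of siControl (limma, adjusted p-values 0.0034 and 0.0004). GSS, which completes glutathione, fell with siADAR1 #1 (log2FC −0.92), where its libraries had 1548 and 2441 normalized counts beside 3647 and 3715 in siControl, and was at 0.49 with siADAR1 #2, not called. GSR, which reduces oxidized glutathione, fell with siADAR1 #2 to 54.8% of siControl (log2FC −0.87 ± 0.12, adjusted p = 0.0016) and was at −0.05 with siADAR1 #1. GPX3, a secreted glutathione peroxidase, rose with siADAR1 #1 (0.59) and fell with siADAR1 #2 (−0.98). With siADAR1 #1 the GPX3 call was lost under 5 of 16 alternatives and that of GSS under 3.

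Of 19 thioredoxin and peroxiredoxin genes, 4 rose and 2 fell with siADAR1 #1, and 5 rose and 3 fell with siADAR1 #2 (median log2FC 0.09 and 0.05). That made 31.6% and 42.1% called, beside 16.8% and 26.6% of all genes. SESN2, a stress-induced sestrin, rose with both siRNAs (1.21 and 0.83). TXNIP, the inhibitor that binds thioredoxin, had 1129 and 569 normalized counts in siControl, 352 and 384 with siADAR1 #1, and 2249 and 2678 with siADAR1 #2. It was called in opposite directions, with log2FC of −1.12 ± 0.29 and 1.61 ± 0.29 (limma, adjusted p-values 0.0338 and 0.0051). The call with siADAR1 #1 was lost under 5 of 16 alternatives (adjusted p up to 0.135), and the log2FC was −0.63 without siControl replicate 1 and −1.61 without siControl replicate 2. TXN, thioredoxin itself, had log2FC of 0.16 and −0.38 and was called with neither. TXN2, the mitochondrial thioredoxin, rose with siADAR1 #2 (0.83), and MSRA, a methionine sulfoxide reductase, fell (−1.50). TXNRD3, a relative of TXNRD1, fell with siADAR1 #1 (−1.07), and SESN3 rose (2.70) from 12 and 8.2 normalized counts in siControl to 104 and 58. These calls of TXNRD3 and SESN3 were lost under 1 alternative each.

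Among 21 genes of quinone, carbonyl and xenobiotic metabolism, 2 rose and 1 fell with siADAR1 #1, and 1 rose and 4 fell with siADAR1 #2 (median log2FC −0.23 and −0.22). The shares called, 14.3% and 23.8%, were below the 16.8% and 26.6% of all genes tested. AKR1B1, aldose reductase, had 6036 and 7100.0 normalized counts in siControl, 4683 and 6340 with siADAR1 #1, and 669 and 1062 with siADAR1 #2. It was downregulated with siADAR1 #2 to 13.2% of siControl, with a log2FC of −2.95 ± 0.23 (limma, adjusted p = 0.0003), and with siADAR1 #1 it was at −0.26 (adjusted p = 0.486). ABCC1, an exporter of glutathione conjugates, also fell with siADAR1 #2 (−0.61). TRIM16 was called with both siRNAs (0.75 and 0.86), and the call was lost under 9 of 16 alternatives with siADAR1 #1 (0.47 without siControl replicate 2 and 1.04 without siControl replicate 1) and under 3 with siADAR1 #2. UGDH, which makes UDP-glucuronate, rose with siADAR1 #1 (0.56), and ALDH3A2, a fatty aldehyde dehydrogenase, fell with siADAR1 #1 (−0.61). The call of ABCC1 was lost under 5 of 16 alternatives, and those of UGDH and ALDH3A2 under 4 each.

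Among 18 genes of heme and iron handling, 3 rose and 4 fell with siADAR1 #1, and 1 rose and 5 fell with siADAR1 #2 (median log2FC −0.01 and −0.18). Of this list 38.9% and 33.3% were called, beside 16.8% and 26.6% of all genes. FTH1, the heavy chain that forms ferritin together with the product of FTL, had 31170 and 34364 normalized counts in siControl, 1377 and 4863 with siADAR1 #1, and 26686 and 31708 with siADAR1 #2. It was downregulated with siADAR1 #1 to 9.52% of siControl, with a log2FC of −3.66 ± 0.47 (limma, adjusted p = 0.0040). The replicates of that group were far apart, and both were below every other library. The call was lost without siControl replicate 1 and with robust eBayes, where the adjusted p-value was at most 0.0527. With siADAR1 #1 FTL was at 72.1% of its own siControl level. Downstream of HMOX1, the biliverdin reductases moved apart with siADAR1 #2, with BLVRA downregulated (−1.38 ± 0.19, adjusted p = 0.0018) and BLVRB upregulated (1.37 ± 0.20, adjusted p = 0.0021). FECH, which completes heme, fell with both siRNAs (−1.11 and −1.47), and ACO1, an iron-sensing RNA-binding protein, fell with siADAR1 #1 (−0.77). With siADAR1 #1 these calls of FECH and ACO1 were lost under 3 of 16 alternatives each.

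**Figure D5:**
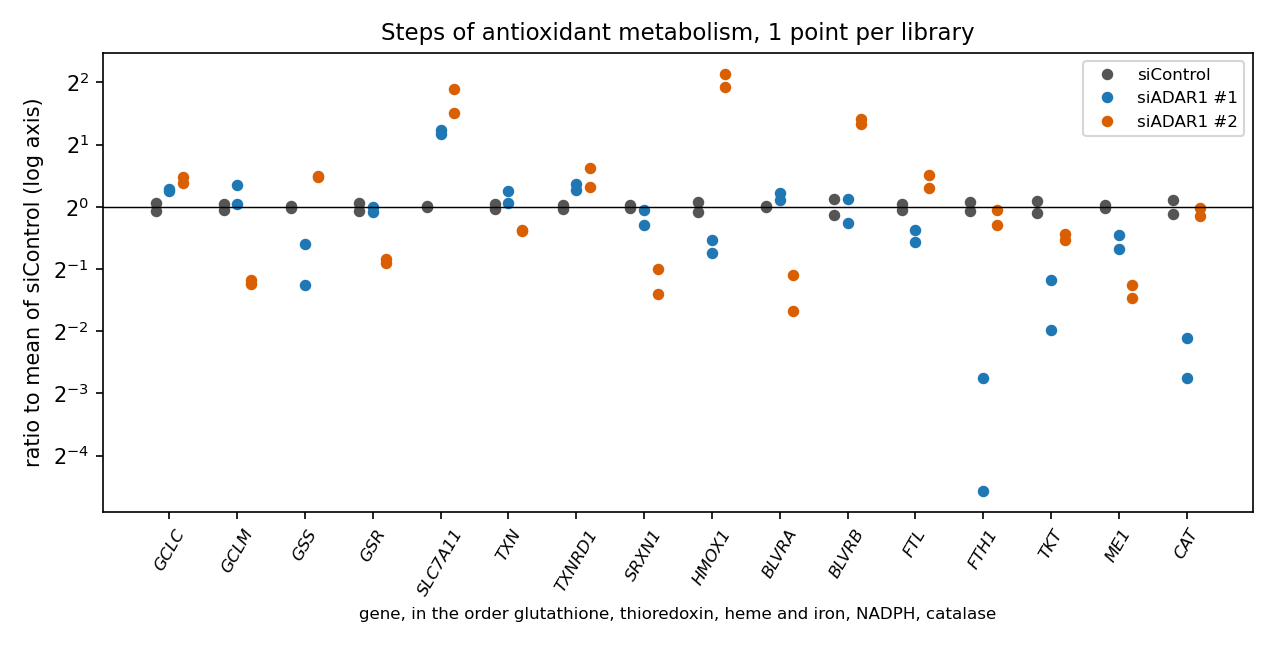
Ratio of each library to the siControl mean (y axis, log scale) for genes in the order of glutathione, thioredoxin, heme and iron, NADPH and catalase. SLC7A11 was above siControl in the 4 siADAR1 libraries, FTH1, TKT and CAT were lowest with siADAR1 #1, and GCLM, GSR, SRXN1, BLVRA and ME1 were lowest with siADAR1 #2.

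NADPH feeds the reductases above. Of 15 genes listed under its supply, 0 rose and 7 fell with siADAR1 #1, and 0 rose and 4 fell with siADAR1 #2. Their median log2FC was −0.53 and −0.33. Not all of them make NADPH themselves, and TKT, RPIA and RPE do not. The calls were 46.7% and 26.7% of this list, beside 16.8% and 26.6% of all genes tested. Under the 16 alternatives the count with siADAR1 #1 ranged from 1 to 8 and that with siADAR1 #2 from 4 to 5. TKT, an enzyme of the pentose phosphate pathway, had 10709 and 9322 normalized counts in siControl, 2542 and 4428 with siADAR1 #1, and 7423 and 6949 with siADAR1 #2. It fell with siADAR1 #1 (log2FC −1.57 ± 0.23, limma, adjusted p = 0.0055), as did NADK, which makes NADP (−1.29), and NNT, the mitochondrial transhydrogenase (−1.01). With siADAR1 #2 the falls were in RPIA (−1.45), NADK2 (−1.48), ME1 (−1.35) and RPE (−1.23), and ME1, malic enzyme, was called with siADAR1 #1 as well (−0.56). That call was lost under 7 of 16 alternatives (adjusted p up to 0.167), and those of TKT and NNT under 1 each. CAT, catalase, had 1937 and 1655 normalized counts in siControl, 266 and 415 with siADAR1 #1, and 1625 and 1777 with siADAR1 #2. It fell to 18.9% of siControl with siADAR1 #1 (log2FC −2.42 ± 0.22, adjusted p = 0.0021). The superoxide dismutase SOD1 was at 70.7% of siControl with siADAR1 #2, a log2FC of −0.50 that just passed the threshold (adjusted p = 0.0141), and the call was lost under 6 of 16 alternatives, among them median-centring (−0.48) and quantile normalization (−0.34). With siADAR1 #1 it was at −0.05.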

How the data were processed

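Adapters were removed by the authors with Atropos in the bcbio-nextgen pipeline, reads per gene were counted with featureCounts and also estimated with Salmon and Tximport, and DESeq2 normalized them, with the Salmon estimates preferred per the paper's methods. Which of these the table holds is not given in the sources used here, and whole numbers do not tell them apart, since estimates are rounded for DESeq2. The submitters' processing notes name GRCh38. The paper's methods name 2 biological replicates, and the labels name 1 sample per transfection with 2 columns each. Each deposited number is a log2 value, which the authors obtained from a normalized count by what its values show to be a variance-stabilizing transformation. Undoing it gave whole reads for 100% of values within a tolerance of 0.1, and the normalized counts printed here. Symbols were matched for 57830 of 58333 identifiers through GENCODE 44. SOD2 matched none.

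Comparisons used limma 3.58.1 under R 4.3.3 on the log2 values (eBayes with trend, two-sided, Benjamini-Hochberg over 20858 genes whose mean log2 value was at least that of 10, a normalized count of 7.617). The 3 groups were fitted together, and the siADAR1 libraries also as 1 group. The steps were tested on simulated data whose changed genes moved alike with both siRNAs, a setting without changes particular to either siRNA. The normalized counts given for 3 reads describe the scale of low values and were not used as a filter. With 2 libraries per group the number of replicates limits precision.

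The 9 genes, the lists and the tests were chosen with earlier results of these data known. Named genes were the 9 genes, ADAR, genes fixed by name (NFE2L1, NFE2L3, BACH1, SQSTM1, MAFG, CUL3, SLC7A11, FTH1 and TXN, with some that are not reported here), and up to 3 called genes per list and siRNA with the smallest adjusted p-values. RPE and the marker genes were named outside this rule.

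Replicate numbers were checked as pairs over the 20858 genes. The difference between replicates 2 and 1 correlated by 0.106, 0.110 and 0.162 between groups. These values are low, and the labels do not say that the numbers pair the libraries. The main fit had no block, and the numbers were tried as a block in an alternative.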

Additional observations from a re-analysis of the deposited data

Results flagged for a closer look

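For 5 of the 9 genes the response differed between the siRNAs by the test of the difference itself (limma, 3 groups in 1 fit). The log2 difference of siADAR1 #2 from siADAR1 #1 was −1.91 for NQO1, 2.66 for HMOX1, −1.40 for GCLM, −1.02 for SRXN1 and 0.88 for FTL. HMOX1 and FTL were above siControl in both siADAR1 #2 libraries and below it in both siADAR1 #1 libraries. The siRNAs silenced ADAR to similar levels (15.8% and 20.3% of siControl, a log2 difference of 0.35 ± 0.30, adjusted p = 0.404). What sets the siRNAs apart was not tested.

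The same test was passed by 25 of the other named pathway genes, beside 32.8% of all genes tested. Higher with siADAR1 #2 were FTH1 (3.49), GSS (1.41), TXNRD3 (1.50), TXN2 (0.96), TXNIP (2.73), ACO1 (1.00), BLVRB (1.43), NADK (1.38), NNT (1.04), TKT (1.10), CAT (2.35) and NOXA1 (1.89). Lower with siADAR1 #2 were NFE2L1 (−0.74), TXN (−0.54), MAFF (−0.57), GPX3 (−1.57), GSR (−0.82), SESN3 (−2.39), MSRA (−1.09), UGDH (−1.01), AKR1B1 (−2.69), BLVRA (−1.55), RPIA (−1.64), NADK2 (−1.28) and ME1 (−0.79). These genes were named in part for their change with 1 of the siRNAs, so their number is a description and is not comparable with the share of all genes.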

How the results depend on the processing

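The count of the 9 genes called with siADAR1 #1 was 1, and it was 0 without a filter, with median-centred or quantile-normalized libraries, with eBayes without a trend, with the 4 libraries of the comparison alone and with voom. Leaving out 1 library gave 0 to 2, and the 2 were HMOX1 and FTL (−0.57, adjusted p = 0.0422) without siADAR1 #1 replicate 2. With siADAR1 #2 the count was 4, and it was 7 with quantile normalization, which added GCLC (0.58), TXNRD1 (0.62) and FTL (0.59). Of all 20858 genes tested, 5541 were called in the main fit and 5512 with quantile normalization. TXNRD1 was also called without siADAR1 #2 replicate 2 (0.62, adjusted p = 0.0221). Under all 16 alternatives NQO1, HMOX1, GCLM and SRXN1 kept their calls with siADAR1 #2, and the 5 genes that differed between the siRNAs kept theirs. With the siADAR1 libraries as 1 group the count was 0, and it was 4 (GCLM, HMOX1, NQO1 and SRXN1) when the average of the siRNA changes was tested in the fit with 3 groups. With the replicate block the counts were 1, 4, 5 and 0, and no call of a named gene changed with either siRNA. Of 576 log2FC values of the 9 genes under the alternatives, 547 kept their direction and their side of the thresholds, 11 lost the call, 9 gained it and 9 changed sign, all of them uncalled values near 0. With median-centring these were NFE2L2 (−0.095) and KEAP1 (−0.12) between the siRNAs and FTL as 1 group (0.048), which quantile normalization put at 0.12. Leaving out 1 library gave −0.054 to 0.070 for KEAP1 and −0.22 to 0.15 for FTL there. Other uncalled values that changed sign with siADAR1 #1 were GSR (0.099 median-centred, 0.038 quantile-normalized), TXN2 (0.0089 median-centred), BLVRB (0.082 and 0.090) and SOD1 (0.099 and 0.022), and with siADAR1 #2 FTH1 (0.028) and CAT (0.071) under quantile normalization. Leaving out 1 library gave ranges of −0.11 to 0.014 for GSR, −0.25 to 0.12 for BLVRB and −0.13 to 0.038 for SOD1 with siADAR1 #1. The ranges were −0.058 to 0.11 for NNT and −0.19 to 0.038 for CAT with siADAR1 #2, and −0.054 to 0.76 for ADAR between the siRNAs. The cause of these changes was not tested.

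Over all genes, 3502 were called with siADAR1 #1, and 1347 without a trend, 392 without siControl replicate 1, 1412 without siADAR1 #1 replicate 1 and 1248 when siControl replicate 2 was left out. With siADAR1 #2 the count was 5541, which became 3150 when siControl replicate 1 was left out and 3242 when siADAR1 #2 replicate 1 was. Median-centring moved the median log2FC of all genes by 0.15 with siADAR1 #1, and by −0.13 between the siRNAs. It turned the split with siADAR1 #1 from 1290 up and 2212 down to 1951 up and 1706 down, where quantile normalization gave 1692 and 1852. Between the siRNAs it gave 2854 up and 4274 down, from 3488 and 3350. As 1 group, 3585 genes were called by the average of the siRNA changes and 0 otherwise.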

Other observations

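NADPH oxidases make superoxide or hydrogen peroxide rather than remove it. Of 14 listed, 10 were tested, and 1 rose and 1 fell with siADAR1 #1 while 3 rose and 1 fell with siADAR1 #2. The shares called were 20.0% and 40.0%, beside 16.8% and 26.6% of all genes. NOX4, a constitutively active oxidase, fell with both siRNAs, from 465 and 506 normalized counts in siControl to 227 and 222 with siADAR1 #1 and 247 and 239 with siADAR1 #2 (log2FC −1.10 ± 0.18 and −0.99 ± 0.18, limma, adjusted p-values 0.0074 and 0.0050). NOXA1, an oxidase activator, had 20.7 and 22.4 in siControl and 141 and 145 with siADAR1 #2 (log2FC 2.60 ± 0.33, adjusted p = 0.0012). DUOXA1 was called with both siRNAs (1.77 and 1.59) on 2 and 6 reads in siControl, and the call was lost under 9 of 15 alternatives with siADAR1 #1 and 5 of 15 with siADAR1 #2. The NOX4 call with siADAR1 #1 was lost under 2 of 16.

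The genes whose log2 values followed NFE2L2 most closely over the 6 libraries included SLC37A1 (Pearson r = 0.987), a gene without a symbol (0.986), INKA2 (0.983) and PPIC (0.982). The gene without a symbol was low, with 3.06 to 17.0 normalized counts, and INKA2 had 13.3 in siControl replicate 2. The mean of the 7 targets, each centred on its own mean, was nearly flat, between −0.09 and 0.07 on the log2 scale, because rises and falls of single targets offset each other. The genes closest to it were ZYG11A (0.995), ZNF71 (0.993), EMC8 (0.986), ZNF343 (0.985) and OXNAD1 (0.982). The libraries share cell line and groups, so these values describe likeness over 6 points.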
